A study of Rattus norvegicus with 9 samples.

Results

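This report describes 10 genes for receptors of extracellular ATP and related nucleotides in rat spinal cord, namely P2rx2, P2rx3, P2rx4, P2rx5, P2rx6, P2rx7, P2ry1, P2ry2, P2ry6 and P2ry14. The members were taken by gene name from a deposited table of 34890 loci, and all 10 names were found, each at 1 locus. The members were 6 P2X and 4 P2Y receptor genes. RNA came from the operated side of the L3-L6 spinal cord of 9 male Sprague Dawley rats of unstated age, labelled as wild type (WT), with 3 rats in each of 3 groups. The JA rats had a sham operation and received normal saline. The SNI rats had spared nerve injury, in which branches of the sciatic nerve are cut and the remaining branch is left whole, and received normal saline. The PLM rats had the same injury and received paeoniflorin at 20.65 mg/mL with liquiritin by mouth. The labels give the liquiritin concentration as 3.98, 3.99 and 3.100 mg/mL for PLM replicates 1, 2 and 3. The study's methods give a single concentration of 3.98 mg/mL for the whole group, so the labels do not settle that these rats differed in dose. The PLM group therefore carries the injury as well as the treatment, and no sham rats given the combination were analysed here.

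P2X receptors are cation channels that open when ATP binds outside the cell and let sodium and calcium in. P2Y receptors bind ATP, ADP, UTP, UDP or UDP-sugars and signal through G proteins, some of them through phospholipase C and calcium release from stores. In the dorsal horn, P2X2 and P2X3 are known from sensory nerve endings, while P2X4, P2X7, P2Y6 and P2Y12 are known from microglia, where several of them have been tied to pain after nerve injury.

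Values are TPM, a share of all transcripts in a library with gene length taken into account, so levels can be set side by side between genes. P2rx6 and P2rx4 were the most abundant members, with means over the 9 samples of 13.9 and 9.89 TPM, and together they made up 47.4% to 59.5% of the summed TPM of the 10 members. P2rx5, P2rx7, P2ry6 and P2ry14 followed at 3.51, 3.48, 3.28 and 3.23 TPM. P2ry1, P2ry2 and P2rx2 lay at 2.35, 2.04 and 1.84 TPM, and P2rx3 was lowest at 0.403 TPM. In this order, the ranges over samples separated P2rx4 from P2rx5 and P2rx2 from P2rx3, and all other neighbours overlapped. P2rx6 exceeded P2rx4 in 8 of 9 samples. None of the 9 members that could be tested differed between groups after adjustment for all loci. The lowest adjusted p-values were those of P2rx6 and P2rx5 in PLM against SNI in the deposited values, and both genes had their highest mean levels in SNI. After each sample was centred on its median, P2ry6 had the lowest, with its highest mean in PLM.

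**Figure D1:**
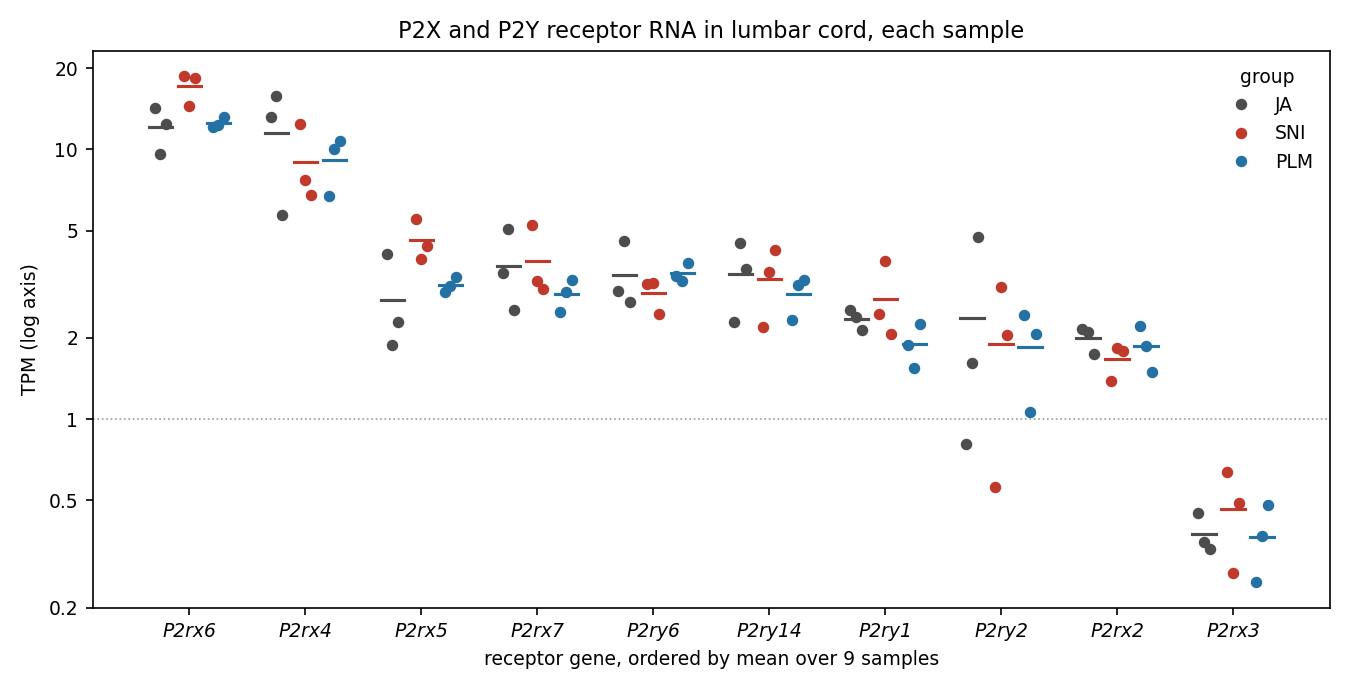
Level of each receptor gene in TPM on a log axis, with 1 point for each of the 9 rats, a bar at the mean of each group of 3, and genes ordered by their mean over all samples. The SNI points of P2rx6 lie between 14.48 and 18.7 TPM, above the PLM points between 12.14 and 13.17 TPM, and the dotted line at 1 TPM lies above every point of P2rx3.

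Promoter sequences of 4 members are shown because their windows held a match to at least 1 of the motifs searched. They are RefSeq sequences of build GRCr8, printed 5′ to 3′ along the gene, with 250 bases before the start site and 50 bases after it. RefSeq's promoter table held 7 of the 10 members. P2rx2, P2rx5 and P2ry6 were not matched. The windows of P2rx3, P2ry1 and P2ry2 held 0 matches to the motifs searched and are not printed. Capitals mark matches, on either strand, to GAGGAA (core of PU.1, a factor of myeloid cells), the interferon response element, GTTGCC (half-site of RFX factors) or GTAAACA (forkhead factors). P2rx4 lies at chr12:39523040-39523339, P2rx7 at chr12:39594873-39595172, P2rx6 at chr11:96954154-96954453 and P2ry14 at chr2:145538461-145538760, all on the minus strand.
P2rx4: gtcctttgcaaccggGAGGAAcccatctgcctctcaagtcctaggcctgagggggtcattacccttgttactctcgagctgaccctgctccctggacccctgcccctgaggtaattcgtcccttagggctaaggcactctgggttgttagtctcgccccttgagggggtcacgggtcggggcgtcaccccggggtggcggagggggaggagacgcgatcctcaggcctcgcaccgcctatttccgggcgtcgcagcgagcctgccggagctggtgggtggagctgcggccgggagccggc
P2rx7: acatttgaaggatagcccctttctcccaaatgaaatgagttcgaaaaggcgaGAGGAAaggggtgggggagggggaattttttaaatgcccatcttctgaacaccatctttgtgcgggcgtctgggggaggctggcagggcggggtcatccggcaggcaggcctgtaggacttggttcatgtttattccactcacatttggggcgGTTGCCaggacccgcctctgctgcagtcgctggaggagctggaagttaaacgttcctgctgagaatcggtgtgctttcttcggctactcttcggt
P2rx6: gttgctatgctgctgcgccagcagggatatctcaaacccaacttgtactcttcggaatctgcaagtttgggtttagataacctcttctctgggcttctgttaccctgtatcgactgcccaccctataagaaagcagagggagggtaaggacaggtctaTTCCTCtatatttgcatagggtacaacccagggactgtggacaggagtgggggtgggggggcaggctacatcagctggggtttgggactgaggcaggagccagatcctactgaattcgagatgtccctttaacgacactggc
P2ry14: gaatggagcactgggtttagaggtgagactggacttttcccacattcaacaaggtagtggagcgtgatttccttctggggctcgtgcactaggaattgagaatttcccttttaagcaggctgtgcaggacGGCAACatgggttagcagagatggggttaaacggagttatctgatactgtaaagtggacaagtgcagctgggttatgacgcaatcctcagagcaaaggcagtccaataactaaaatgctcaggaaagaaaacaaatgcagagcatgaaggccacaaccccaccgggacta

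The GAGGAA letters stood at bases 16 to 21 of the P2rx4 window and at bases 53 to 58 of the P2rx7 window, and in reverse complement at bases 159 to 164 of the P2rx6 window, which makes 3 of the 7 members with a promoter. GTTGCC stood at bases 206 to 211 for P2rx7 and in reverse complement at bases 131 to 136 for P2ry14. Of 33469 promoters of the same length, 27.6% held GAGGAA, 12.2% held GTTGCC, 3.92% held the interferon response element and 3.78% held GTAAACA, and no matches overlapped another motif in the printed windows. These matches describe letters in a window and not a site in use.

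The first comparison, SNI with JA, asks how nerve injury relates to receptor RNA. Differences are log2 fold changes on the log2(TPM + 1) scale, which understates changes of low genes. They were tested with limma on each pair of groups, two-sided, with Benjamini-Hochberg adjustment over all loci whose mean reached 1 TPM. P2rx6 read 14.27, 9.6 and 12.37 TPM in JA replicates 1, 2 and 3 and 18.7, 14.48 and 18.42 TPM in the SNI replicates. All SNI samples lay above all JA samples, with SNI replicate 2 close to JA replicate 1. The group means were 12.1 ± 2.35 TPM (SD, n = 3) in JA and 17.2 ± 2.36 TPM (SD, n = 3) in SNI. The difference was 0.48 (SE 0.17, 95% confidence interval 0.09 to 0.88), with adjusted p = 0.614 in limma.

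P2rx5 encodes a subunit that forms channels with P2X1 and on its own. P2rx5 read 4.1, 1.88 and 2.29 TPM in JA and 5.53, 3.94 and 4.4 TPM in SNI, so that JA replicate 1 fell within the SNI range and the other JA samples lay below it. Its difference was 0.62 (SE 0.24, 95% confidence interval 0.05 to 1.18), with adjusted p = 0.614 in limma. Against the whole table, the log2 fold changes of P2rx5 and P2rx6 stood at percentiles 97.2 and 95.2 of all loci tested.

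No member passed an adjusted p of 0.05 in limma in SNI against JA (0 of 9 tested), and neither did any other locus, so percent called was 0% in both directions. At an unadjusted p under 0.05, P2rx5 and P2rx6 were the 2 higher members, where 6.11% of all loci were higher by that rule, and no member was lower, where 0.99% of loci were. P2rx6 was the single member whose SNI and JA samples did not overlap, upward, where 12.1% of loci were separated in that direction and 1.66% downward. The study's cut-offs, an unadjusted p under 0.05 with an absolute log2 fold change above 1, were applied here to limma on log2(TPM + 1). The study used them with DESeq2, so the calls can differ from the study's. By these cut-offs no member was called in SNI against JA, where 0.495% of loci were higher and 0.193% lower. The median difference was 0.12 over all loci and -0.05 over the 9 members. When each sample was centred on its own median log2 level over the loci tested, which removes a shift common to all genes, P2rx6 gave 0.36 (adjusted p = 0.889) and P2rx5 gave 0.50 (adjusted p = 0.889) in limma. After centring the SNI and JA samples of P2rx6 overlapped, and no member was separated upward, where 4% of loci were. With centring no member passed the unadjusted threshold, where 1.7% of loci were higher and 3.13% lower.

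Summed levels of 12 neuron markers, all with means of at least 1 TPM, are given beside P2rx5 and P2rx6. Nefm, Nefl, Snap25 and Tubb3, with means of 1445, 989, 956 and 490.0 TPM over the 9 samples, made up most of the sum. The sums were 4654.9, 2446.79 and 2786.19 TPM in JA, 5296.14, 4644.67 and 5768.83 TPM in SNI and 4104.57, 4593.57 and 3985.66 TPM in PLM. JA replicate 2 was lowest for this sum and also for P2rx5 and P2rx6. Of the 12 markers, 0 passed the adjusted threshold in limma in SNI against JA or in PLM against SNI. At an unadjusted p under 0.05, 2 were higher in SNI against JA under both scalings, where 6.11% of all loci were as deposited and 1.7% after centring. In PLM against SNI 4 were lower as deposited, where 35.8% of all loci were, and 0 after centring, where 6.89% were. The part of this in the receptor values was not tested, and in tissue RNA, fewer cells of a type and less RNA per cell cannot be told apart.

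P2rx2 and P2rx3 encode the subunits of ATP-gated channels of sensory neurons, alone or joined in one channel. P2rx2 read 2.16, 2.1 and 1.75 TPM in JA, 1.38, 1.84 and 1.79 TPM in SNI and 2.22, 1.86 and 1.5 TPM in PLM. The 3 groups overlapped in the deposited values. Its difference in SNI against JA was -0.17 (95% confidence interval -0.55 to 0.20, adjusted p = 0.681 in limma). After centring, the SNI samples of P2rx2 lay below all JA samples, at -0.29 (adjusted p = 0.889 in limma), where 6.87% of loci were separated downward. P2rx3 read 0.45, 0.35 and 0.33 TPM in JA, 0.64, 0.27 and 0.49 TPM in SNI and 0.25, 0.37 and 0.48 TPM in PLM. No sample reached 1 TPM for P2rx3, so it was left out of the main test, and without the filter its difference in SNI against JA was 0.08 (adjusted p = 0.795 in limma). Of 10 sensory neuron markers, 4 reached a mean of 1 TPM, and Mrgprd was listed at 0 in every sample. The sums of the 10 were 81.5 to 286 TPM in JA, 201 to 325 TPM in SNI and 166 to 228 TPM in PLM, to which the markers under 1 TPM added little.

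P2rx4 and P2rx7 encode the channels known from microglia, and P2X7 opens at high ATP and leads to interleukin-1β release. P2rx4 read 13.16, 15.75 and 5.73 TPM in JA, 12.4, 7.7 and 6.76 TPM in SNI and 6.69, 10.05 and 10.76 TPM in PLM. JA replicate 3 was the lowest of all 9 samples and JA replicate 2 the highest, and the SNI samples lay between them. The difference in SNI against JA was -0.27 with a wide 95% confidence interval from -1.16 to 0.61 (adjusted p = 0.776 in limma), and without JA replicate 3 it was -0.67. P2rx7 read 3.49, 5.06 and 2.53 TPM in JA, 5.24, 3.24 and 3.05 TPM in SNI and 2.5, 2.96 and 3.28 TPM in PLM. Its groups overlapped as well, and its difference in SNI against JA was 0.05 (95% confidence interval -0.55 to 0.66, adjusted p = 0.939 in limma). These intervals leave room for changes of either sign. Summed TPM of 15 microglia markers was 569 to 681 in JA, 549 to 585 in SNI and 539 to 618 in PLM, and 0 of the 14 markers tested passed the adjusted threshold in limma in SNI against JA, with 1 lower at an unadjusted p under 0.05. After centring, 0 passed the adjusted threshold in limma, 4 were lower at an unadjusted p under 0.05, and 12 of 14 were below 0. Of all loci, 0.99% were lower at an unadjusted p under 0.05 as deposited and 3.13% after centring, and 51.4% were below 0 after centring. All 10 oligodendrocyte and all 7 endothelium markers tested were below 0 there as well, and 0 of 12 neuron markers were.

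Among the P2Y genes, P2ry1 encodes an ADP receptor, P2ry2 a receptor for ATP and UTP, and P2ry6 a receptor for UDP, all coupled to phospholipase C. P2ry6 read 2.98, 4.58 and 2.72 TPM in JA, 3.16, 3.2 and 2.46 TPM in SNI and 3.4, 3.24 and 3.79 TPM in PLM. JA replicate 2 was highest and SNI replicate 3 lowest. P2ry1 read 2.54, 2.39 and 2.14 TPM in JA, 2.45, 3.86 and 2.07 TPM in SNI and 1.89, 1.55 and 2.26 TPM in PLM. SNI replicate 2 stood above every other sample for P2ry1. The differences in SNI against JA were -0.15 for P2ry6 (95% confidence interval -0.61 to 0.31) and 0.15 for P2ry1 (95% confidence interval -0.32 to 0.62).

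P2ry2 was the most variable member, with a highest value 8.43 times its lowest. It read 0.81, 1.61 and 4.72 TPM in JA, 0.56, 3.09 and 2.05 TPM in SNI and 2.43, 1.06 and 2.07 TPM in PLM. JA replicate 3 was the highest sample, and that library also had the highest sum of Schwann cell markers, 7902.93 TPM against 129.78 to 4502.26 TPM in the other 8 samples. It was highest for the sum of blood cell markers too, at 9263.1 TPM. PLM replicate 1, with P2ry2 at 2.43 TPM, had a Schwann cell marker sum of only 280.76 TPM. The difference of P2ry2 in SNI against JA was -0.16 (95% confidence interval -1.38 to 1.06) with all samples and 0.31 without JA replicate 3. The part of Schwann cell RNA in these values was not tested. P2ry14, which encodes a receptor for UDP-sugars that couples to inhibitory G proteins, read 2.29, 4.51 and 3.59 TPM in JA, 2.2, 3.51 and 4.22 TPM in SNI and 2.34, 3.14 and 3.27 TPM in PLM. Replicate 1 was the lowest sample in each group, and the groups overlapped.

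The second comparison, PLM with SNI, asks how the combination relates to receptor RNA in injured rats. P2rx6 and P2rx5 had lower values in PLM, close to those in JA. All 3 PLM samples of P2rx6 lay below all 3 SNI samples, with a PLM mean of 12.5 ± 0.550 TPM (SD, n = 3). The difference was -0.42 (SE 0.11, 95% confidence interval -0.68 to -0.16), with adjusted p = 0.0516 in limma, just above the threshold of 0.05. Without SNI replicate 2, the SNI sample nearest to the PLM samples, it was -0.53 with adjusted p = 0.0340 in limma, which passes. P2rx5 read 2.96, 3.11 and 3.37 TPM in PLM, all below the SNI samples, and its mean was 3.15 ± 0.207 TPM (SD, n = 3) there, against 4.62 ± 0.818 TPM for the injured rats given saline. Its difference was -0.43 (SE 0.13, 95% confidence interval -0.74 to -0.12), with adjusted p = 0.0699 in limma. SNI samples enter both this comparison and the one with JA, so the higher SNI values of P2rx5 and P2rx6 count in both.

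The background in this comparison was large. Of 15474 loci tested, 13.6% were lower in PLM at an adjusted p under 0.05 and 0.246% were higher, 85% of loci had a log2 fold change below 0, and the median over all loci was -0.21. Among the 9 members tested, 0 passed the adjusted threshold in limma, 2 were lower at an unadjusted p under 0.05 (P2rx5 and P2rx6) where 35.8% of all loci were, and 0 were higher where 1.28% of loci were. The 2 lower members whose groups did not overlap, P2rx5 and P2rx6, stand beside 41.9% of all loci separated downward. The members' counts, 2 of 9, were not above these shares, and the log2 fold changes of P2rx5 and P2rx6 were at percentiles 14.3 and 15.4. The members' median was -0.12, and 5 of 9 were below 0. By the study's cut-offs applied to limma no member was called, where 1.42% of loci were lower and 0.226% higher.

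Centring each sample on its median moved the median over all loci to 0.04. P2rx6 then differed by -0.17 (95% confidence interval -0.42 to 0.08, adjusted p = 0.463) and P2rx5 by -0.18 (95% confidence interval -0.46 to 0.09, adjusted p = 0.473) in limma, and the PLM and SNI samples of both overlapped, as those of all members did in the downward direction, where 9.73% of loci were separated. Without SNI replicate 3 the deposited difference of P2ry6 was 0.097. With all samples P2ry6 differed by 0.19 (SE 0.12, adjusted p = 0.296) as deposited and by 0.44 (SE 0.11, 95% confidence interval 0.17 to 0.70, adjusted p = 0.141) after centring in limma. All PLM samples of P2ry6 lay above all SNI samples under both scalings, although by a small margin in the deposited values, at 3.24 TPM for PLM replicate 2 against 3.2 TPM for SNI replicate 2. Upward separation was found for 1.59% of loci as deposited and 14.1% after centring. P2rx2 joined P2ry6 there after centring, by a small margin, with 0.34 (adjusted p = 0.379 in limma). After centring, 0 of 9 members passed the adjusted threshold in limma, where 0.129% of loci were higher and 0.685% lower. P2ry6 was the 1 member with an unadjusted p under 0.05, where 10% of loci were higher and 6.89% lower. Of 14 microglia markers tested beside P2ry6, 9 were higher and 1 lower after centring at an unadjusted p under 0.05, with a median of 0.32, and 0 passed the adjusted threshold in limma. In the deposited values 0 of the 14 were higher at an unadjusted p under 0.05, the median was 0.07, and Tmem119 was lower at an adjusted p under 0.05 in limma. After centring, 4 of 7 endothelium, 5 of 10 oligodendrocyte and 3 of 6 blood cell markers were also higher at an unadjusted p under 0.05. By the same rule 13 of 14 astrocyte markers were lower. The part of these marker differences in P2ry6 was not tested.

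**Figure D2:**
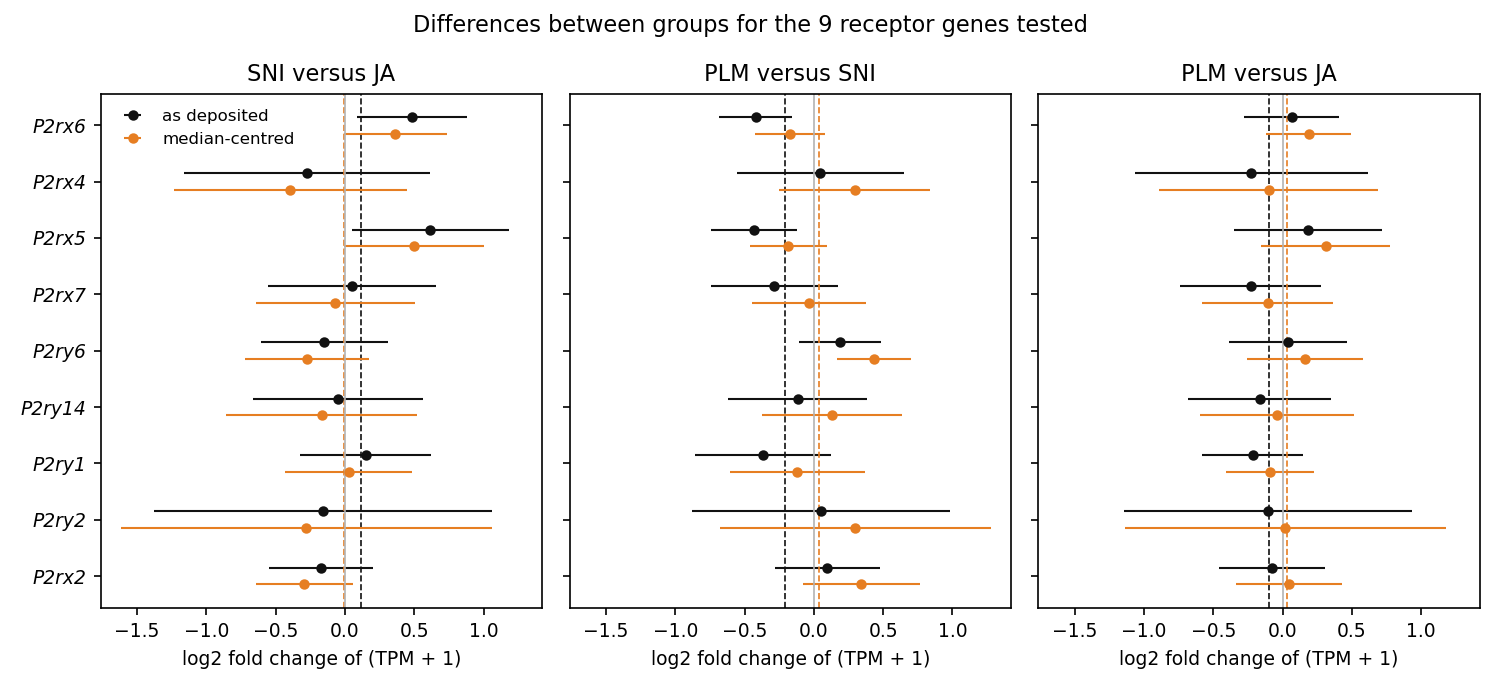
Log2 fold changes of TPM + 1 for the 9 receptor genes tested, with 95% confidence intervals, in the 3 comparisons. Black points are values as deposited, orange points are median-centred values, dashed lines are the medians over all loci in the same colours, and P2rx6 in PLM versus SNI moves from -0.42 to -0.17 with centring while P2ry6 moves from 0.19 to 0.44.

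The other members gave differences in PLM against SNI whose intervals included 0 under both scalings. P2rx4 differed by 0.05 (95% confidence interval -0.55 to 0.65), P2rx7 by -0.28 (95% confidence interval -0.74 to 0.18; -0.088 without SNI replicate 1) and P2rx2 by 0.10 (95% confidence interval -0.28 to 0.47). P2ry1 differed by -0.37 (95% confidence interval -0.86 to 0.13; -0.17 without SNI replicate 2), P2ry2 by 0.05 (95% confidence interval -0.88 to 0.98) and P2ry14 by -0.12 (95% confidence interval -0.62 to 0.38). P2ry14 changed sign with centring, to 0.13. The 3 PLM samples were the tightest group for P2rx4, P2rx5, P2rx6, P2rx7, P2ry2, P2ry6 and P2ry14, with, for example, SDs for P2rx7 of 0.392 TPM in PLM, 1.28 TPM in JA and 1.21 TPM in SNI.

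The third comparison, PLM with JA, sets treated injured rats beside sham rats. No member passed the adjusted threshold in limma (0 of 9), where 0.013% of loci were lower and 0.00652% higher, and none had an unadjusted p under 0.05, where 10.5% of loci were lower and 1.3% higher. By the study's cut-offs applied to limma none was called, where 0.658% of loci were lower and 0.28% higher. P2rx6 differed by 0.07 (95% confidence interval -0.28 to 0.41, adjusted p = 0.876) and P2rx5 by 0.19 (95% confidence interval -0.35 to 0.72, adjusted p = 0.768) in limma. In the deposited values the PLM and JA samples of every member overlapped, where 15.7% of loci were separated downward and 2% upward. After centring, P2rx6 alone was separated, upward and by a small margin at 0.19 (adjusted p = 0.631 in limma), where 9.51% of loci were and 6.93% were separated downward. After centring, 0 members passed the adjusted threshold in limma or an unadjusted p under 0.05, where 4.72% of loci were lower and 5.26% higher by the latter. The members' median was -0.11 as deposited against -0.10 for all loci, and 0.02 against 0.03 after centring.

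Summed over subunits, the 6 P2X genes gave sums of 32.5 ± 6.62, 36.8 ± 6.41 and 30.0 ± 2.96 TPM (SD, n = 3 each) for JA, SNI and PLM. The 4 P2Y genes gave 11.6 ± 2.60, 10.9 ± 2.65 and 10.1 ± 1.20 TPM in the same order. The ranges of both sums overlapped between all groups.

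The members did not share one pattern over the 9 samples. For each member at or above 1 TPM, the 3 nearest of 12615 named genes were found by the root mean square distance between standardised, median-centred log2 levels, where 0 means an identical pattern. The samples share libraries and composition, so these distances are descriptions. P2rx5 lay nearest to Atp6v1a, a subunit of the vacuolar proton pump (distance 0.179), Map2k4, a kinase of stress signalling (0.223), and Syt2, a calcium sensor of synaptic vesicles (0.25). P2rx6 lay nearest to Adam22 (0.332), Aldh1b1 (0.336) and Septin6 (0.343). Both receptors were low in JA replicate 2 and high in SNI replicate 1, and P2rx6 held place 153 among the genes nearest to P2rx5 at a distance of 0.477.

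P2rx7 lay nearest to Prr12 (0.307), Cx3cr1, the fractalkine receptor of microglia (0.406), and Vps39 (0.417). The microglia genes P2ry13 and P2ry12 lay farther from P2rx7, at 1.14 (place 2406) and 1.49 (place 7171). P2rx4 lay nearest to Ldlrad4 (0.396), Brd3 (0.401) and Akap1 (0.409), and its distances to P2ry13 and P2ry12 were 0.964 and 1.47. RefSeq's gene table for GRCr8 lists P2rx4 and P2rx7 next to each other among protein-coding genes of chromosome 12, and their distance was 0.593, which placed P2rx7 at 54 for P2rx4 and P2rx4 at 48 for P2rx7. P2ry2 and P2ry6, neighbours on chromosome 1, were 1.29 apart.

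P2ry6 lay nearest to P2ry13, an ADP receptor gene of microglia (0.277), followed by Eif4g2 (0.305) and Hk2 (0.35). Its JA replicate 2 and all 3 PLM samples were high and SNI replicate 3 was low, as they were for P2ry13. P2ry14 lay nearest to Dynlrb2, a dynein light chain (0.188), Erich2 (0.233) and Cfap206, a protein of motile cilia (0.279), and was 1.12 from its chromosomal neighbour P2ry13. The summed ependyma markers, which are genes of ciliated cells, were 40.06, 59.79 and 53.27 TPM in JA, 32.78, 54.85 and 57.05 TPM in SNI and 40.31, 41.18 and 50.61 TPM in PLM. Replicate 1 was lowest in each group for these markers, as it was for P2ry14, and the part of this in P2ry14 was not tested. P2ry1 lay nearest to Pank3 (0.325), Tasor (0.338) and Kif13b (0.42), P2ry2 to Lpcat2 (0.292), Plaat3 (0.303) and Dnaaf2 (0.319), and P2rx2 to Zdhhc12 (0.25), Gbx1 (0.336) and Ube2e3 (0.342).

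**Figure D3:**
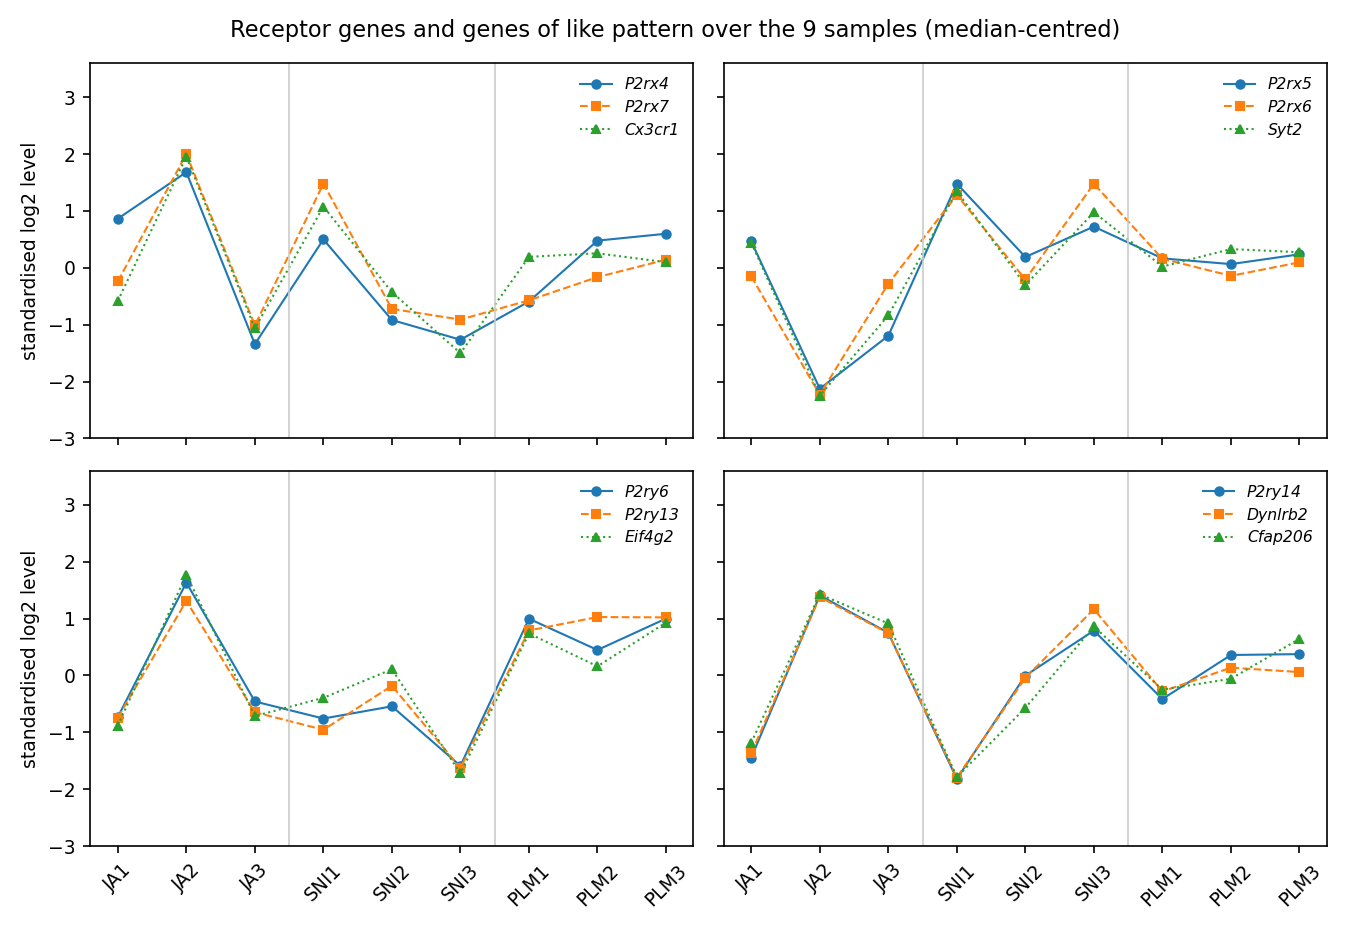
Standardised, median-centred log2 levels (in SD units) of 4 sets of genes over the 9 samples, with lines drawn to guide the eye and with no order among replicates. P2ry6 runs with P2ry13 at a distance of 0.277 and P2ry14 with Dynlrb2 at 0.188, while P2rx4 and P2rx7 part at JA replicate 1 and P2rx5 and P2rx6 part at JA replicate 3.

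The genes around these receptors were described from lists of other P2 receptors, ATP release, ATP breakdown and signalling. Of 5 further P2 receptor genes, P2rx1, P2ry4 and P2ry10 had means under 1 TPM, and neither P2ry12 nor P2ry13 passed the adjusted threshold in limma in any comparison. P2ry12, the ADP receptor of resting microglia, had means of 11.6 ± 0.933, 13.6 ± 0.276 and 15.5 ± 2.05 TPM (SD, n = 3) in JA, SNI and PLM and was named after its values were seen. In SNI against JA, 0 genes of the lists passed the adjusted threshold in limma, and at an unadjusted p under 0.05, in the deposited values, 1 gene of the P2X7 path was lower and 1 of the P2Y path higher, where 0.99% of all loci were lower and 6.11% higher. In PLM against JA, 0 passed as well. At an unadjusted p under 0.05 in the deposited values, P2ry12 was higher, where 1.3% of all loci were. By the same rule 2 of 10 ectonucleotidase genes, 1 of 6 genes of ATP release, 2 of 7 of the P2X4 path, 1 of 5 of the P2X7 path and 3 of 12 of the P2Y path were lower, where 10.5% of all loci were.

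Of 6 genes of ATP release tested, 3 fell in PLM against SNI. Gja1, connexin 43 of astrocyte gap junctions and hemichannels, read 119.85, 120.06 and 94.48 TPM in SNI and 41.84, 35.27 and 38.13 TPM in PLM, with no overlap. Its difference was -1.51 (SE 0.12, adjusted p = 0.00477 in limma). Gjb6, connexin 30, fell from 62.7 ± 4.11 to 18.1 ± 4.47 TPM (SD, n = 3), by 1.76 on the log2 scale (adjusted p = 0.0054 in limma). Lrrc8a, a subunit of the volume-regulated anion channel, differed by -0.49 (adjusted p = 0.0275 in limma). With centring Gja1 and Gjb6 passed (-1.26 and -1.52) and Lrrc8a did not (-0.24). Gja1 and Gjb6 are also astrocyte markers: of 14 such markers, 13 fell in PLM against SNI and 9 did with centring, and their sum was 6026 to 7255 TPM in SNI and 3199 to 3839 TPM in PLM. The part of this in the receptor values was not tested.

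Of 10 genes tested from the ectonucleotidase list, which holds enzymes that break down nucleotides outside cells and relatives of them that act mainly inside the cell, 4 fell in PLM against SNI in the deposited values and 0 with centring. Entpd2, which turns ATP into ADP, read 8.32, 13.79 and 7.76 TPM in SNI and 3.36, 2.41 and 4.83 TPM in PLM, a difference of -1.27 (SE 0.27, adjusted p = 0.0343 in limma). The others were Entpd6 (-0.45, adjusted p = 0.0424), Alpl (-0.42, adjusted p = 0.0276) and Nt5e (-0.39, adjusted p = 0.0485 in limma), the last encoding CD73, which makes adenosine from AMP. With centring, 1 of the 10 was lower and 1 higher at an unadjusted p under 0.05.

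Of 8 genes of the path from microglial P2X4 to neurons, 2 fell. Ntrk2, the receptor of the growth factor BDNF, read 62.27, 57.11 and 49.36 TPM in SNI and 27.17, 25.4 and 27.18 TPM in PLM. Its difference was -1.05 (SE 0.09, adjusted p = 0.00526 in limma), and -0.80 with centring (adjusted p = 0.0274 in limma). In the same comparison 13 of 14 astrocyte markers fell, 9 with centring, and the part of this in Ntrk2 was not tested. Csf1, a growth factor for microglia, differed by -0.49 (adjusted p = 0.0492 in limma) and by -0.24 with centring (adjusted p = 0.339 in limma). Of 12 genes of the G protein and phospholipase C path of P2Y receptors, 4 fell as deposited: Plcb1 (-0.73, adjusted p = 0.0269), Plcb3 (-0.46, adjusted p = 0.0348), Gnai2 (-0.41, adjusted p = 0.0176) and Gna11 (-0.31, adjusted p = 0.0437 in limma). None of these 4 passed with centring in limma, where 3 genes of the path were lower at an unadjusted p under 0.05. Of 5 genes tested of the inflammasome path of P2X7, 0 passed the adjusted threshold in limma, with 1 lower and 0 higher at an unadjusted p under 0.05, a median of 0.07, and Nlrp3 and Il1b at means under 1 TPM. After centring 0 of these 5 passed the adjusted threshold in limma, 0 were lower and 2 higher at an unadjusted p under 0.05, and the median was 0.32. After centring 3 genes of the P2X4 path were also higher at an unadjusted p under 0.05, and 1 was lower. The counts of genes that fell in the deposited values stand beside 13.6% of all loci lower by the same rule, and those after centring beside 0.685%. Counts at an unadjusted p under 0.05 stand beside 35.8% of loci lower and 1.28% higher as deposited, and beside 6.89% lower and 10% higher after centring. With 1 sample left out at a time, Gja1, Gjb6 and Ntrk2 passed in all 6 fits, with an adjusted p of at most 0.0301, 0.0345 and 0.0301 in limma, on values as deposited. Centred values with no filter on low levels ended the call of Gjb6, with adjusted p = 0.0519 in limma. The other named list genes each lost the call in 3 or more of the 6 fits, and the highest adjusted p among them was 0.151, for Csf1 without PLM replicate 1 (-0.44).

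**Figure D4:**
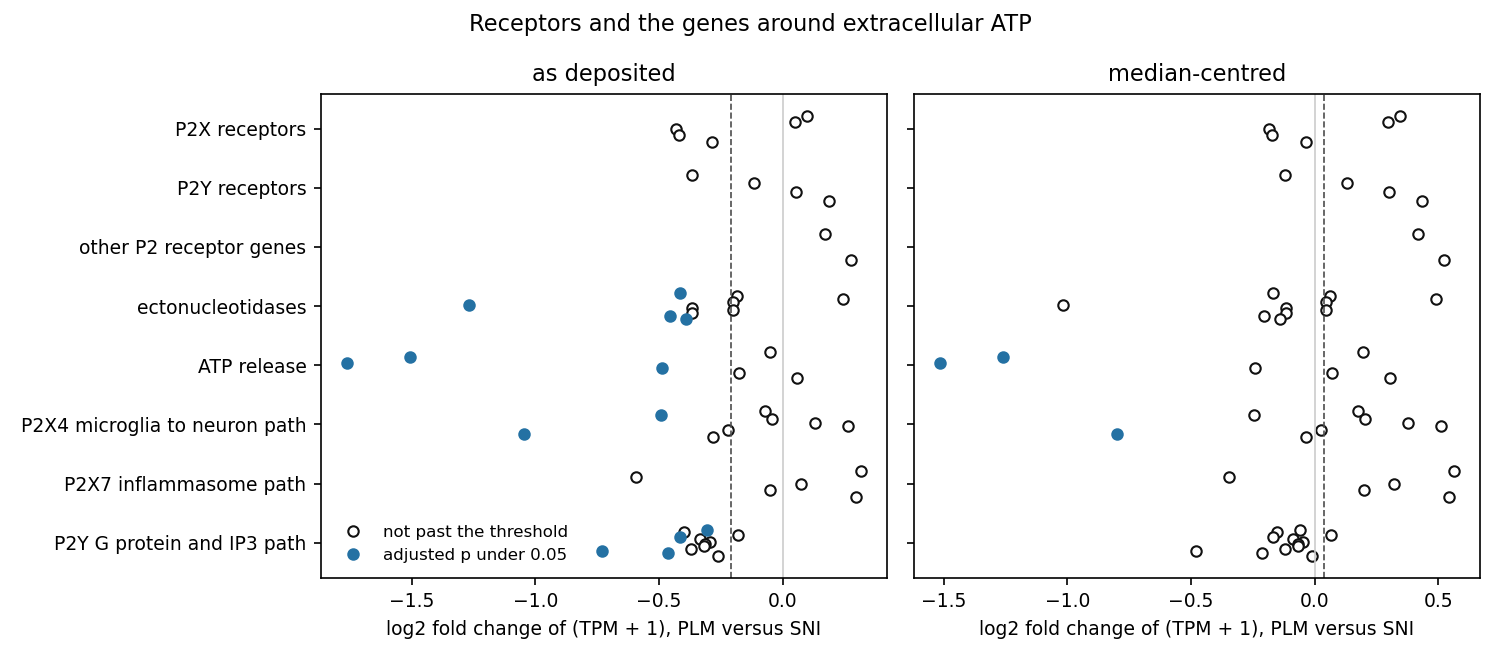
Log2 fold change of TPM + 1 in PLM versus SNI for the receptor genes and the genes of 6 lists around extracellular ATP, as deposited on the left and median-centred on the right, with 1 point for each gene, filled where the adjusted p was under 0.05, and a dashed line at the median of all loci. No receptor gene is filled in either panel, 13 genes of the lists are filled on the left and 3, Gja1, Gjb6 and Ntrk2, on the right.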

How the data were processed

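Poly(A) or other selection of RNA was not given in the sources used here. Libraries of L3-L6 spinal cord total RNA were made with a TruSeq RNA kit, and the submitters' processing notes name CASAVA, fastp 0.19.5 and StringTie. The study's methods add HISAT2 as the aligner. The notes also name GRCh38.p13, a human build, although the gene identifiers are rat Ensembl identifiers, so the build used for mapping is not settled, and the use of strand in counting is not given in the sources used here. A single matrix of TPM with 9 columns was deposited, whose totals lie between 999999.57 and 1000000.42. Read depth cannot be had from such values, so depth and counting error are unknown and no count test was used, although the authors called genes with DESeq2 on counts not analysed here. No column was left unused (0 columns of no sample).

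Each sample was grouped by its label, and biological replicates are 1 rat each, so p-values measure the spread between these rats. Loci whose mean over both groups reached 1 TPM were fitted in pairs of groups with limma 3.58.1 in R 4.3.3 (empirical Bayes with a variance trend) on log2(TPM + 1), and a call is an adjusted p under 0.05. The script was tested on simulated data. The members and the gene lists were chosen with earlier results of these data known. Named genes are all members, list genes past the adjusted threshold in any comparison (at most 4 for each list and comparison), and the 3 genes nearest to each member. Outside this rule, Nefm, Nefl, Snap25, Tubb3, Mrgprd, Nlrp3, Il1b, P2rx1, P2ry4, P2ry10 and P2ry12 are named to describe their lists. Alternatives were median-centring, quantile normalization, rescaling without 13 mitochondrial genes, a pseudocount of 0.1, other filters, 1 fit of all 9 samples, a replicate block, the study's thresholds and leaving out each replicate. Genes that overlap a neighbour cannot be told apart without strand. Promoter windows and gene order came from RefSeq tables of GRCr8, and no coordinates of the deposited table were used.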

Additional observations from a re-analysis of the deposited data

How the results depend on the processing

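The count of members past the adjusted threshold stayed at 0 of those tested in SNI versus JA and in PLM versus JA under all alternatives run. In PLM versus SNI it became 1, P2rx6, with a pseudocount of 0.1 (-0.44, adjusted p = 0.0496 in limma) and with a filter of 1 TPM in every sample (adjusted p = 0.0426 in limma), and ranged from 0 to 1 with 1 replicate left out, being 1 without SNI replicate 2. The cause was not tested. Over all alternatives, the adjusted p of P2rx6 ranged from 0.0340 to 0.535 and that of P2rx5 from 0.0531 to 0.585, both with differences below 0 throughout.

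Of 432 member differences under alternatives, 385 kept their direction and side of the threshold, 3 became calls (P2rx6) and 44 changed sign, and none of the sign changes came from a called value. Median-centring, alone or together with the replicate block, gave 0.13 for P2ry14 in PLM versus SNI, -0.069 for P2rx7 in SNI versus JA, and 0.048 for P2rx2 and 0.018 for P2ry2 in PLM versus JA. Quantile normalization gave 0.093 for P2ry14 in PLM versus SNI, -0.058 for P2rx7 in SNI versus JA and 0.025 for P2rx2 in PLM versus JA, and rescaling without mitochondrial genes gave -0.020 for P2rx7 in SNI versus JA. Median-centring with no filter, an alternative chosen after seeing the data, gave 0.11 for P2ry14 and 0.13 for P2rx3 in PLM versus SNI, -0.060 for P2rx7 and -0.028 for P2rx3 in SNI versus JA, and 0.042 for P2rx2, 0.10 for P2rx3 and 0.012 for P2ry2 in PLM versus JA. The cause was not tested beyond the construction of centring, which subtracts the shift of all loci.

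With each replicate left out in turn, differences that changed sign in PLM versus SNI ranged from -0.11 to 0.28 for P2rx4, -0.34 to 0.35 for P2ry2 and -0.32 to 0.036 for P2ry14. In SNI versus JA they ranged from -0.14 to 0.25 for P2rx7, -0.043 to 0.29 for P2ry1, -0.52 to 0.31 for P2ry2, -0.26 to 0.029 for P2ry6 and -0.25 to 0.15 for P2ry14. In PLM versus JA they ranged from -0.16 to 0.018 for P2rx2, -0.62 to 0.034 for P2rx4, -0.078 to 0.19 for P2rx6, -0.47 to 0.36 for P2ry2, -0.076 to 0.22 for P2ry6 and -0.37 to 0.0029 for P2ry14. Differences that kept their sign ranged in PLM versus SNI from 0.0066 to 0.19 for P2rx2, -0.52 to -0.32 for P2rx5, -0.53 to -0.36 for P2rx6, -0.40 to -0.088 for P2rx7, -0.50 to -0.17 for P2ry1 and 0.097 to 0.24 for P2ry6. They ranged in SNI versus JA from -0.23 to -0.091 for P2rx2, -0.67 to -0.013 for P2rx4, 0.45 to 0.86 for P2rx5 and 0.34 to 0.60 for P2rx6, and in PLM versus JA from 0.016 to 0.43 for P2rx5, -0.42 to -0.030 for P2rx7 and -0.30 to -0.13 for P2ry1.

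Replicate numbers were not shown to pair samples: deviations of same-numbered samples correlated between -0.0461 and 0.126 across 15503 genes, and a sample's own number was best in 4 of 9 cases. With the replicate block the members called stayed at 0 in all 3 comparisons, P2rx6 in PLM versus SNI had adjusted p = 0.134 in limma, and loci called lower fell in number to 151. With the block on median-centred values, P2rx5 and P2rx6 were higher in SNI versus JA at an unadjusted p under 0.05 in limma (0.0149 and 0.0056), where 3.66% of loci were. Their adjusted p was 0.599 each in limma. Gja1, Gjb6 and Ntrk2 kept adjusted p under the threshold with the block on deposited values (0.0211, 0.0235 and 0.0286 in limma) but not with the block on median-centred values (0.0974, 0.117 and 0.103 in limma). The other named list genes all lost the call with the block on deposited values, namely Entpd2, Entpd6, Nt5e, Alpl, Lrrc8a, Csf1, Gna11, Gnai2, Plcb1 and Plcb3, with adjusted p from 0.104 (Gnai2) to 0.157 (Gna11) in limma. Quantile normalization and rescaling without mitochondrial genes ended the same calls. The fit of all 9 samples ended them except for Gnai2, and leaving out the filter on low levels ended them except for Lrrc8a, Gnai2 and Plcb1. With 3 rats a group and TPM that keep no depth, P2rx3 and the other members near 1 TPM carry an unknown counting error.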
